A study of Sus scrofa with 9 samples.

Results

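The genes of the proteasome, the protease that degrades ubiquitin-tagged proteins, were followed in RNA from pig (Sus scrofa) oocytes. Members were the rows of the deposited count table whose symbol starts with PSMA, PSMB, PSMC, PSMD, PSME, PSMF or PSMG and goes on with a digit. This gave 43 of 23507 genes, on 14 chromosomes, and all 43 passed the filter on low counts. Of these, 41 encode subunits, regulators or assembly chaperones of the proteasome. PSMC3IP, a partner of meiotic recombination proteins, and PSME3IP1, which binds the activator PSME3, share the prefix but are not subunits. A further 3 subunits, PSMB6, PSMC1 and PSMG2, had a row without a symbol and were recognised from its description. They fall outside the rule, are not counted among the 43, and are given as values. PSMB5, PSMB8, PSMB11 and PSMG4 were not analysed here.

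All oocytes were wild type, were taken with compact cumulus layers, were matured in culture and were collected at metaphase II (MII), the arrest that awaits fertilisation. The control group (3 libraries) was kept at 38.5 °C. The heat stress group (HS, 3 libraries) was held at 41.5 °C for 24 h from the germinal vesicle (GV) stage and then at 38.5 °C until MII. The third group (HS_Lasp, 3 libraries) had the same heat with L-Asp, the usual abbreviation of the amino acid L-aspartic acid, in the medium. The labels list L-Asp at 0.5, 1.0 and 1.5 mmol/L and do not say which was sequenced. No group received L-Asp without heat. The 3 comparisons ask what heat during maturation did to these RNAs, whether L-Asp altered the heated state, and how heated oocytes with L-Asp stood against controls.

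The proteasome is a barrel with a regulatory cap at its ends. In the barrel, rings of beta subunits carry the proteolytic sites and are flanked by rings of alpha subunits that gate the entrance. The cap has a base, with ATPases that unfold the substrate, and a lid, whose deubiquitinase removes the ubiquitin chain. Dedicated chaperones assemble the core and the base, and other activators can replace the cap. In oocytes, the proteasome degrades cyclin B and securin, which lets meiosis proceed.

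Libraries held 41693395 to 58361475 counts. Pairs of control libraries differed far less than pairs of heated ones: the ratio of their squared difference to that of independent counts was, as a median over genes, 5.19 to 5.22 within control, 109 to 119 within HS and 79.5 to 84.9 within HS_Lasp. The 3 control libraries were therefore averaged and entered the tests as 1 sample, so that no SD is given for control and its spread is taken to be like that of the heated groups. The series design gives 25 oocytes per group. The labels do not tie libraries to separate cultures or animals, so the spread behind each p-value may be technical. Markers of oocytes (14 of 15 found) summed to 26360 to 26640 CPM (counts per library, brought to equal depth by TMM) in control, 12150 to 15510 in HS and 14620 to 17170 in HS_Lasp. BTG4 and BMP15 carried most of that sum, with means of 15380.0 and 5036 CPM in control and 7162 and 2022 in HS. Of the 14, 3 lay above control in all 3 HS libraries (17.6% of all genes tested did) and 7 below (24.6%). In all 3 HS_Lasp libraries 2 lay above control (19.2%) and 7 below (25.7%). ZP2 had a mean of 895 CPM in control and 806 in HS. Markers of cumulus and granulosa cells (20 of 25 found) summed to 1166 to 1205, 1204 to 1580 and 1190 to 1230 CPM. RGS2 and VCAN carried most of that sum, with means of 917 and 130 CPM in control and 1052 and 164 in HS. Markers of lower level hardly enter it. Of the 20, 7 lay above control in all 3 HS libraries (17.6% of all genes tested did) and 2 below (24.6%). In bulk RNA, fewer cells of a type and less RNA per cell cannot be told apart, and with oligo(dT) priming neither can shorter poly(A) tails and less RNA.

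No proteasome gene passed an adjusted p of 0.05 in any comparison with edgeR's quasi-likelihood test. For HS against control, 0 of 43 were called, beside 0.00% of all 15012 genes tested, and 4 members had an unadjusted p under 0.05, beside 3.86% of all genes. For HS_Lasp against HS, 0 were called, beside 0.00%, and 4 had an unadjusted p under 0.05, beside 6.61%. For HS_Lasp against control, 0 were called, beside 0.00%, and 3 had an unadjusted p under 0.05, beside 3.22%. DESeq2 called 0, 0 and 1 members in these comparisons, beside 1.13%, 0.934% and 0.386% of genes, and the 1 was PSMB7. An edgeR fit that took all 9 libraries as replicates called 3, 0 and 3 members, beside 2.88%, 0.0133% and 1.79% of genes. These were PSMB7 and PSME2, higher, and PSMD8, lower, in both comparisons with control. The members' counts therefore have to be read against backgrounds that also move with the tool and with how the control libraries enter. The fit of 9 libraries counts control libraries that differed little as separate replicates. Its p-values, here and below, may therefore be too small.

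The median log2 fold change of the 43 members was 0.08 for HS against control (0.00 over all genes), with 24 members above 0 beside 50.1% of all genes. It was −0.03 for HS_Lasp against HS (−0.01 over all genes), with 19 above 0 beside 49.0%. It was −0.12 for HS_Lasp against control (0.01 over all genes), with 20 above 0 beside 50.5%. The plot of fold changes by role shows these values for every member. The medians lay near 0, and single members other than PSMB9 and PSMF1, which lie near the detection limit, ranged from −1.21 to 2.66 for HS against control. The upper end is PSME2, whose control level was also low.

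**Figure D1:**
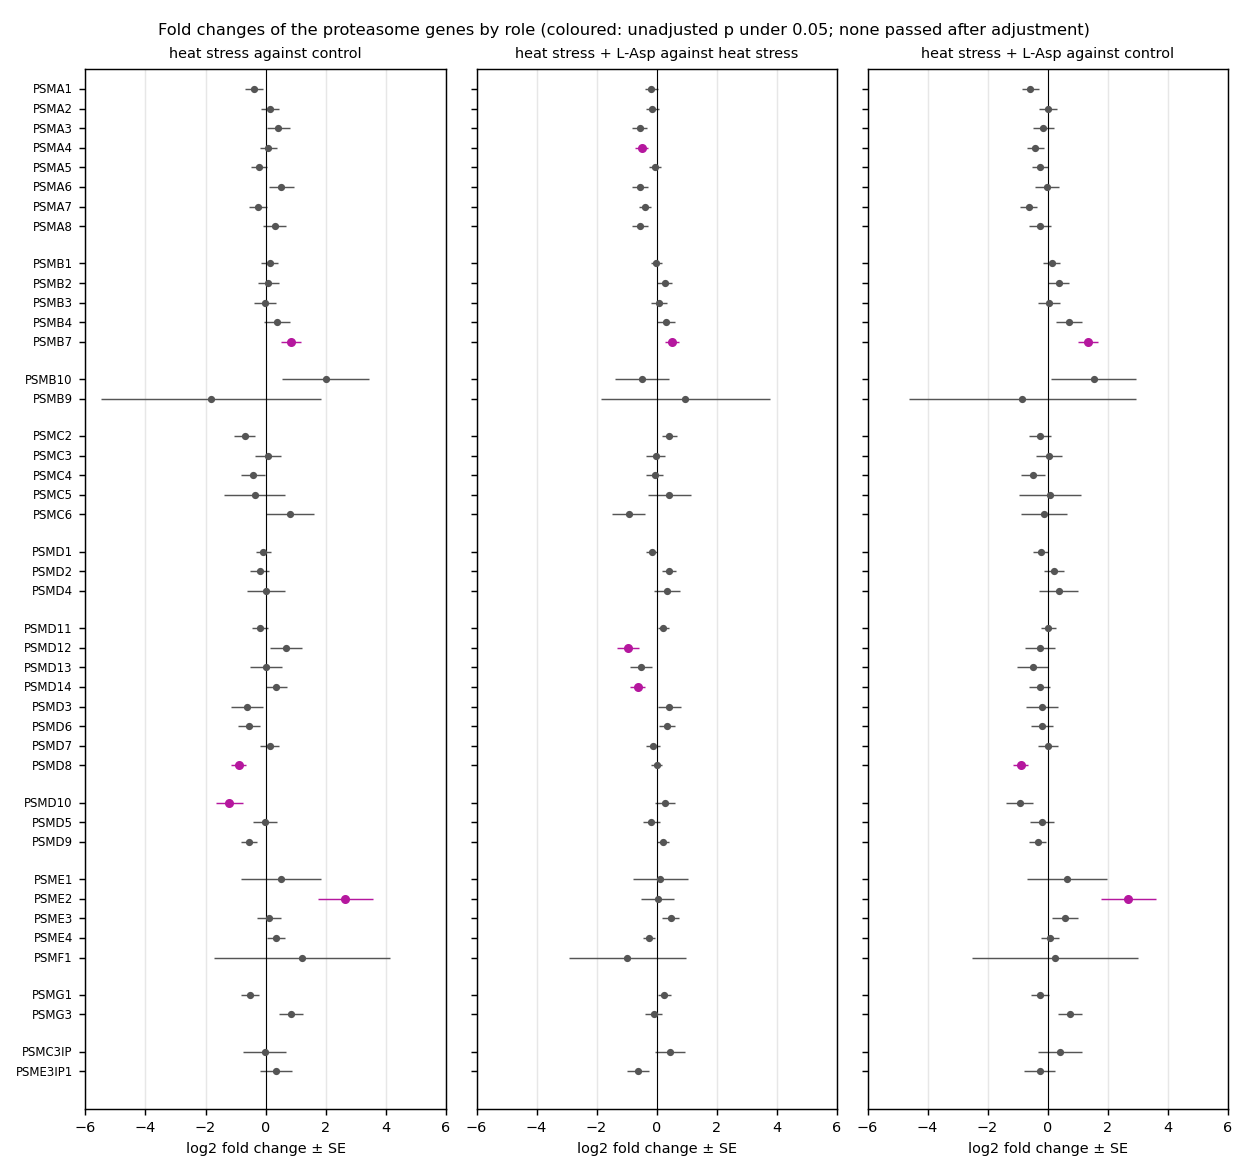
Log2 fold change ± SE (edgeR, x axis) of each of the 43 genes (y axis, grouped by role) in the 3 comparisons. Coloured points have an unadjusted p under 0.05 (4, 4 and 3 genes) and none passed after adjustment; the 8 alpha genes at the top all lie below 0 in the middle panel, and the bars of PSMB9 and PSMF1, which lie near the detection limit, are the widest.

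Levels between genes were compared on the FPKM scale, the authors' values per gene length and library depth. Means over all 9 libraries ran from 0.147 FPKM for PSMF1 to 354 FPKM for PSMB1. The median member of the alpha ring stood at 63.5 FPKM, of the constitutive beta genes at 56.3, of the lid at 32.7 and of the scaffold and ubiquitin receptor genes at 32.9. The ATPase genes stood lower, with a median of 4.55 FPKM and a range of 2.30 to 16.4, and the authors' FPKM is a level of RNA, not of subunit. The inducible beta genes had a median of 0.340 FPKM. Gene length matters for this order: the lengths implied by the ratio of counts to FPKM reached 8342 bases for PSMC3, 7945 for PSMB2, 7831 for PSMA4 and 6869 for PSMA2, against 890 for PSMB3, so a level per length depends on the gene model used.

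**Figure D2:**
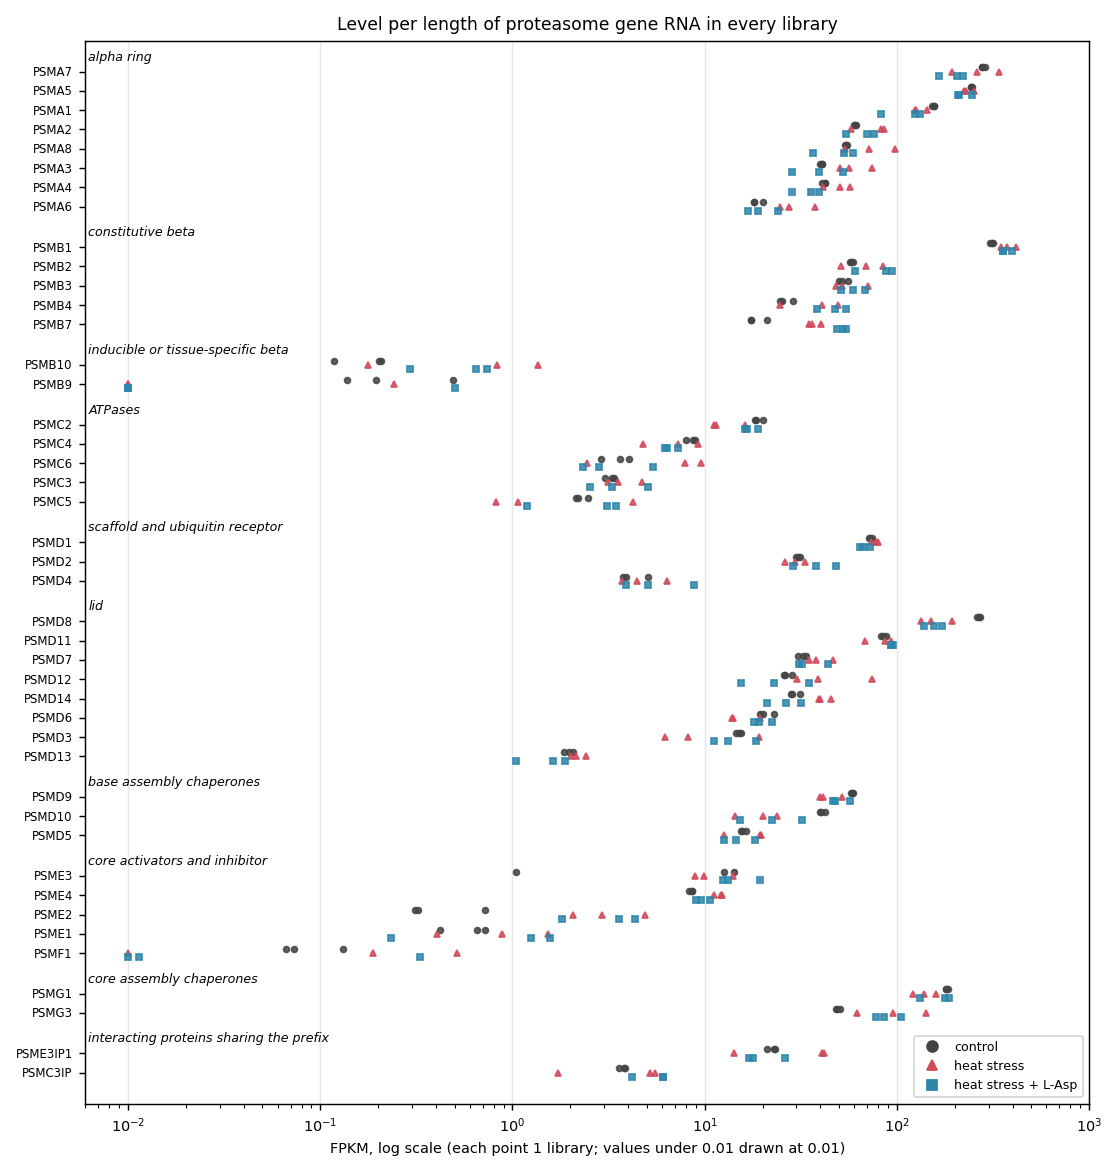
FPKM on a log scale (x axis) of each proteasome gene (y axis, grouped by role) in every library, with 3 points per group. PSMB1 is the highest at a mean of 354 FPKM, the means of the ATPase genes lie between 2.30 and 16.4, and PSMB9, PSMB10, PSME1 and PSMF1 lie near or under 1 FPKM in most libraries.

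The alpha ring was represented by all 8 of its genes, PSMA1 to PSMA8. Their summed RNA was 2171, 2163 and 2146 CPM in the 3 control libraries, 2449, 2107 and 1869 in HS, and 1826, 1941 and 1445 in HS_Lasp. The sums of HS straddled control, those of HS_Lasp all lay below control, and HS and HS_Lasp overlapped. For HS_Lasp against HS, all 8 log2 fold changes were below 0 (median −0.44, from −0.57 to −0.06), beside 50.6% of all genes tested, and 1 gene had an unadjusted p under 0.05. Over 17 alternative settings 7 or 8 of the 8 were below 0 and the median ran from −0.56 to −0.31; the count was 7 without HS replicate 1 or without HS_Lasp replicate 2. The genes shared their extreme libraries: HS replicate 1 was the highest of the 9 for 5 of the 8 genes, and HS_Lasp replicate 3 was the lowest for 6. The share of counts from mitochondrially encoded genes was 10.0% to 10.1% in control, 3.09%, 5.18% and 14.5% in HS replicates 1 to 3, and 5.30%, 9.47% and 9.29% in HS_Lasp. The alpha sums stood in the opposite order to this share within HS, though not within HS_Lasp, and its part in them was not tested. For HS against control, 5 of the 8 were above 0 (median 0.12), and for HS_Lasp against control 7 were below 0 (median −0.26, beside 49.5% of all genes below 0).

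PSMA4 gave the lowest unadjusted p of the alpha genes for HS_Lasp against HS. It lies at chr7:47434919-47448891 in the coordinates of the table, whose genome build was not given in the sources used here. Its level was 351, 352 and 340.1 CPM in control, 442, 349 and 326 in HS, and 270.0, 299 and 221 in HS_Lasp. Every HS_Lasp library lay below every HS and every control library. The log2 fold change of HS_Lasp against HS was −0.50 ± 0.21 (SE), with an unadjusted p of 0.034 and an adjusted p of 0.738 (edgeR), and it was −0.36 without HS replicate 1. PSMA6, the alpha gene of lowest level per length (22.8 FPKM), had 29.7, 29.6 and 32.8 CPM in control, 57.2, 37.3 and 38.7 in HS, and 36.3, 25.3 and 29.1 in HS_Lasp. Its HS libraries lay above all others, but the differences had unadjusted p-values of 0.223 against control and 0.0729 for HS_Lasp against HS.

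PSMA7 was the alpha gene of highest level per length (248 FPKM). It had 452, 439.5 and 437 CPM in control, 387, 447 and 292 in HS, and 296, 321 and 244 in HS_Lasp. The 3 HS_Lasp libraries lay below the 3 control libraries, with a log2 fold change of −0.63 ± 0.29, an unadjusted p of 0.0542 and an adjusted p of 1.0 (edgeR). PSMA8, which takes the place of PSMA7 in proteasomes of male germ cells, was present in every library, at 72.8 to 196 CPM. Its share of the summed FPKM of PSMA7 and PSMA8, a ratio chosen after its values were seen, was 15.8%, 16.4% and 16.6% in control, 27.2%, 17.3% and 21.8% in HS, and 20.6%, 21.0% and 18.0% in HS_Lasp. All 6 heated libraries lay above the 3 control libraries, HS ranged more widely than HS_Lasp, and the 2 heated groups overlapped.

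The beta genes of the constitutive core did not share the direction of the alpha ring for HS_Lasp against HS. The 5 with a symbol summed to 988, 990.4 and 976 CPM in control, 1012, 961 and 1290.0 in HS, and 1096, 1318 and 1261 in HS_Lasp. All HS_Lasp sums lay above control and overlapped with HS. Of the 5 genes, 4 were above 0 for HS_Lasp against HS (median 0.27, and 3 to 5 genes over 17 alternative settings), beside 49.0% of all genes. Only PSMB7 had an unadjusted p under 0.05 there (edgeR), and PSMB1 had a log2 fold change of −0.005. For HS_Lasp against control 5 were above 0 (median 0.36, and 4 or 5 genes), beside 50.5%. For HS against control 4 were above 0 (median 0.13), beside 50.1%. The sum rests mainly on PSMB1 and PSMB2, non-catalytic beta subunits. PSMB1, the member of highest level per length, had 384, 397 and 391 CPM in control, 487, 360.4 and 445 in HS, and 458, 413 and 417 in HS_Lasp, and its HS libraries spanned the values of the other groups.

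PSMB7 encodes the catalytic subunit with trypsin-like activity and lies at chr1:265172237-265235387. Its RNA was 22.4, 27.3 and 22.6 CPM in control, 48.4, 38.7 and 43.0 in HS (43.4 ± 4.88, SD, n = 3), and 61.8, 57.96 and 65.0 in HS_Lasp (61.6 ± 3.55, SD, n = 3). The groups did not overlap: every HS library lay above every control library and every HS_Lasp library above every HS library. The log2 fold change was 0.84 ± 0.34 for HS against control (unadjusted p 0.0294), 0.51 ± 0.23 for HS_Lasp against HS (0.0462) and 1.35 ± 0.35 for HS_Lasp against control (0.00253). With edgeR on 7 libraries the adjusted p was 1.0, 0.738 and 1.0 in this order. DESeq2 gave an adjusted p of 0.00981 for HS_Lasp against control, and the fit of 9 libraries gave 0.00559 there and 0.0243 for HS against control. The comparisons share libraries and are not independent of each other.

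The gene overlaps NEK6 on the other strand. The libraries do not mark strand, so reads from the shared stretch cannot be told apart. NEK6 had 6.02 to 8.19 CPM in control, 1.94 to 9.63 in HS and 7.83 to 10.2 in HS_Lasp, and the part of shared reads in the PSMB7 values was not tested. PSMB6, the catalytic subunit with caspase-like activity, was read from the row known by its description. It had 173, 167 and 166 CPM in control, 199, 186 and 201 in HS, and 238, 222 and 224 in HS_Lasp. As for PSMB7, the 3 groups did not overlap and stood in the order control, HS, HS_Lasp. The share of all genes in this order is not given, so the order is not read as a result about these genes. The log2 fold change of PSMB6 was 0.20 ± 0.26 for HS against control (unadjusted p 0.446, edgeR) and 0.43 ± 0.26 for HS_Lasp against control (0.129). For HS_Lasp against HS it was 0.22 ± 0.18, with an unadjusted p of 0.239 (edgeR).

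The inducible beta subunits replace the constitutive catalytic ones in the immunoproteasome of immune cells and of cells exposed to interferon. In control both measured members were within a few times the limit of detection, which 3 fragments would set at 0.223 to 0.278 CPM if each fragment gave 4 counts. PSMB9 was at 0.177, 0.260 and 0.619 CPM in control, 0, 0 and 0.304 in HS, and 0, 0 and 0.602 in HS_Lasp, and no fold change is given. PSMB10 had 0.827, 0.464 and 0.806 CPM in control, 0.674, 2.73 and 5.12 in HS, and 2.36, 2.69 and 1.09 in HS_Lasp. Its HS_Lasp libraries all lay above control while HS spanned both, and the unadjusted p was 0.195 for HS against control. PSMB9 and PSMB10 together made up 0.294%, 0.267% and 0.605% of the summed FPKM of PSMB6, PSMB7, PSMB9 and PSMB10 in control, 0.108%, 0.498% and 1.01% in HS, and 0.318%, 0.388% and 0.411% in HS_Lasp. The 3 groups overlapped, and constitutive genes supplied nearly all of the measured RNA in every library.

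Of the base of the cap, 5 ATPase genes had a symbol. Their summed RNA was 132, 134 and 138 CPM in control, 101, 106 and 127 in HS, and 109, 108 and 131 in HS_Lasp. All heated sums lay below control, but PSMC2 carried the most CPM of the 5 genes and had the largest gap in HS. The sum without PSMC2 is not given. Of the 5, 2 lay below the control mean in all 3 HS and all 3 HS_Lasp libraries, PSMC2 and PSMC4. Of all genes tested, 24.6% did so in HS and 25.7% in HS_Lasp. PSMC2, the highest ATPase per length (16.4 FPKM), had 57.7, 58.7 and 63.5 CPM in control, 33.7, 29.4 and 48.9 in HS, and 47.8, 46.9 and 55.7 in HS_Lasp. It lay below control in all 6 heated libraries, with an unadjusted p of 0.0779 for HS and 0.48 for HS_Lasp. PSMC5, the lowest (2.30 FPKM), had 3.96, 4.51 and 3.995 CPM in control, 1.84, 6.48 and 1.45 in HS, and 5.77, 2.04 and 5.33 in HS_Lasp. At this level the heated libraries lay on both sides of control. The log2 fold changes of the 5 genes ran from −0.69 to 0.81 for HS against control and from −0.93 to 0.43 for HS_Lasp against HS. PSMC1, known by its description, had 18.3 to 22.0 CPM in control, 14.4 to 30.2 in HS and 13.1 to 21.1 in HS_Lasp.

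PSMD1 and PSMD2 form the scaffold of the base, and PSMD4 is a receptor for ubiquitin chains. PSMD1 was the steadiest of them, with 373, 387 and 376 CPM in control, 385, 338 and 362 in HS, and 343, 306 and 321 in HS_Lasp. The HS_Lasp group overlapped with HS and lay below control, at a log2 fold change of −0.24. PSMD4 had 6.70, 6.48 and 8.67 CPM in control, 7.11, 9.09 and 6.05 in HS, and 6.15, 8.05 and 14.1 in HS_Lasp, and the groups overlapped. PSMD2 ranged from 91.2 to 167 CPM over all libraries, with its 3 HS libraries below control.

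The 8 lid genes summed to 1146, 1139 and 1129 CPM in control, 1012, 925 and 812 in HS, and 905, 818 and 871 in HS_Lasp. All heated sums lay below control, and PSMD8 had the largest gap of the 8 genes. Without PSMD8 the other 7 genes summed to 630.1, 613 and 599 CPM in control, 735, 607 and 559 in HS, and 623, 568 and 557 in HS_Lasp, so that HS straddled control and HS_Lasp overlapped with it. Lid genes were split between directions for HS against control, with 4 above and 4 below 0 (beside 49.9% of all genes below 0), and 6 of 8 were below 0 for HS_Lasp against control (6 or 7 over 17 alternative settings), beside 49.5% of all genes.

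PSMD8, a structural lid subunit, lies at chr6:47289886-47297051 and overlaps no other row. It had 516, 526 and 529.7 CPM in control, 277, 318 and 252 in HS (282 ± 33.3, SD, n = 3), and 282, 249 and 314 in HS_Lasp (282 ± 32.4, SD, n = 3). No heated library came near control, and the heated groups covered the same range. The log2 fold change was −0.90 ± 0.26 for HS against control (unadjusted p 0.00526, adjusted p 0.725) and −0.90 ± 0.26 for HS_Lasp against control (unadjusted p 0.00517, adjusted p 1.0), both with edgeR on 7 libraries. It was 0.00 ± 0.19 for HS_Lasp against HS. With all 9 libraries as replicates, edgeR's adjusted p was 0.00842 for HS and 0.0132 for HS_Lasp, both against control.

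PSMD12 and PSMD14 were the lid genes of smallest p for HS_Lasp against HS. PSMD14, at chr15:68162532-68208883, is the metalloprotease that removes ubiquitin from the substrate. It had 49.0, 44.0 and 44.2 CPM in control, 57.99, 51.1 and 67.6 in HS, and 45.3, 38.1 and 30.7 in HS_Lasp. The HS libraries lay above both other groups. The log2 fold change of HS_Lasp against HS was −0.63 ± 0.25, with an unadjusted p of 0.0272 and an adjusted p of 0.738 (edgeR). PSMD12, a structural subunit at chr12:13705343-13742776, had 109.9, 99.2 and 101 CPM in control, 266, 124 and 111 in HS, and 122, 81.5 and 55.3 in HS_Lasp. HS replicate 1 stood far above every other library, and HS and HS_Lasp overlapped. Its log2 fold change of HS_Lasp against HS was −0.95 ± 0.37 (unadjusted p 0.0249, adjusted p 0.738) with all libraries and −0.45 without HS replicate 1. PSMD12 overlaps PITPNC1 on the other strand, which had at most 0.668 CPM. PSMD13, the lid gene of lowest level per length (1.89 FPKM), had 13.5, 12.2 and 12.9 CPM in control, 13.1, 11 and 15 in HS, and 9.68, 6.25 and 11.5 in HS_Lasp. HS straddled control, and the 3 HS_Lasp libraries lay below it.

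**Figure D3:**
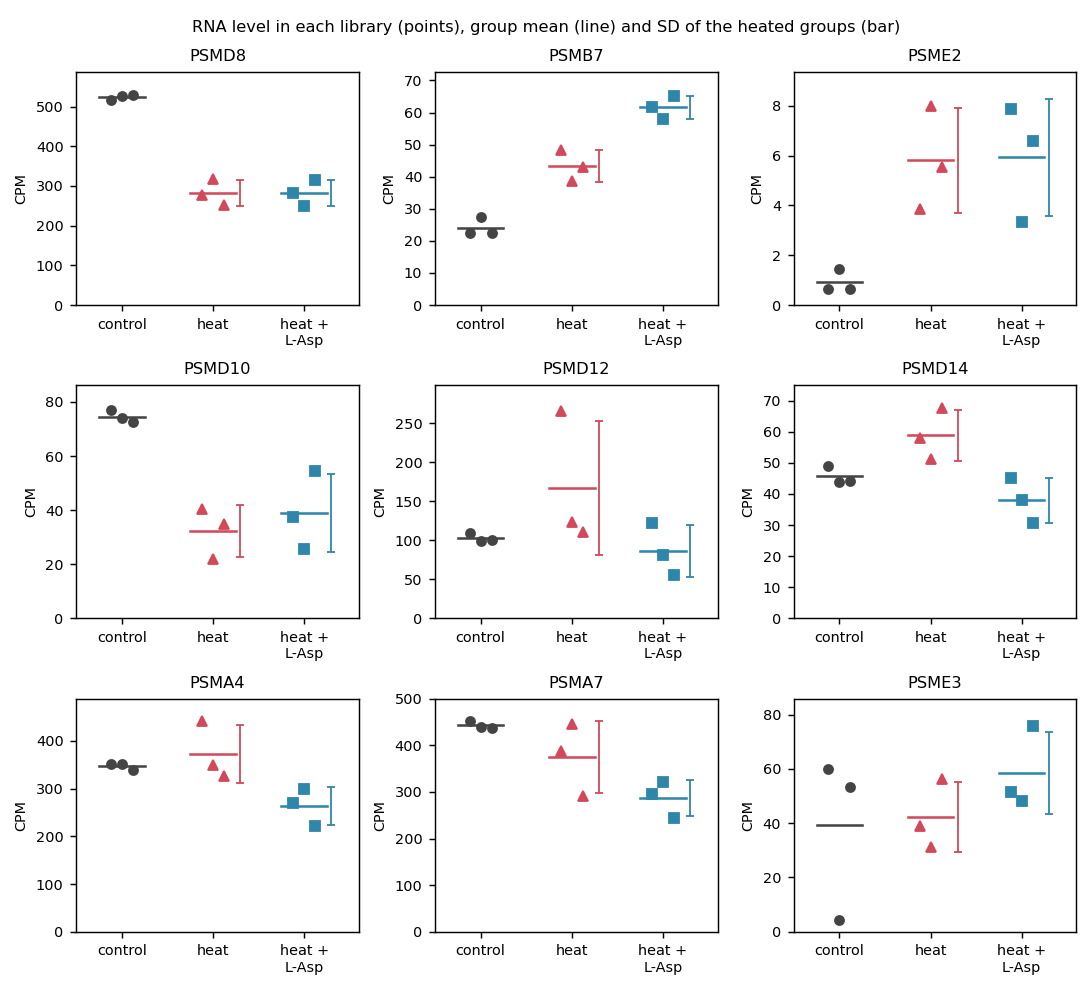
CPM (y axis) in each library (points) by group for 9 proteasome genes, with the group mean as a line and the SD of the 2 heated groups as a bar. PSMD8 lies at 516 or more in control and at most 318 in the heated libraries, PSMB7 lies without overlap in the order control, HS, HS_Lasp, and PSME3 has 1 control library at 4.42 beside 60.0 and 53.5.

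The chaperones that assemble the base, PSMD5, PSMD9 and PSMD10, summed to 324, 316 and 312 CPM in control, 229, 197 and 223 in HS, and 224, 223 and 265 in HS_Lasp. Every heated sum lay below every control sum. For HS against control all 3 genes were below 0 (median −0.55, and 2 or 3 genes over 17 alternative settings), and for HS_Lasp against control all 3 were below 0 in every setting (median −0.34). PSMD10, known as gankyrin and located at chrX:88540376-88548560, had 77.0, 74.0 and 72.5 CPM in control, 40.4, 21.8 and 34.9 in HS, and 37.3, 25.6 and 54.3 in HS_Lasp. No heated library reached control. Its log2 fold change was −1.21 ± 0.44 for HS against control (unadjusted p 0.0194, adjusted p 1.0, edgeR) and −0.94 ± 0.45 for HS_Lasp against control (unadjusted p 0.0598). PSMD9, the highest of the 3 per length (51.1 FPKM), had 189, 186 and 183 CPM in control, 123, 137 and 121 in HS, and 139, 136 and 168 in HS_Lasp. It too lay below control in all 6 heated libraries, with an unadjusted p of 0.0623 for HS. PSMD5 (16.1 FPKM) had 58.9, 56.4 and 55.8 CPM in control, 65.9, 37.7 and 66.4 in HS, and 47.8, 60.8 and 42 in HS_Lasp, with heated libraries on both sides of control.

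**Figure D4:**
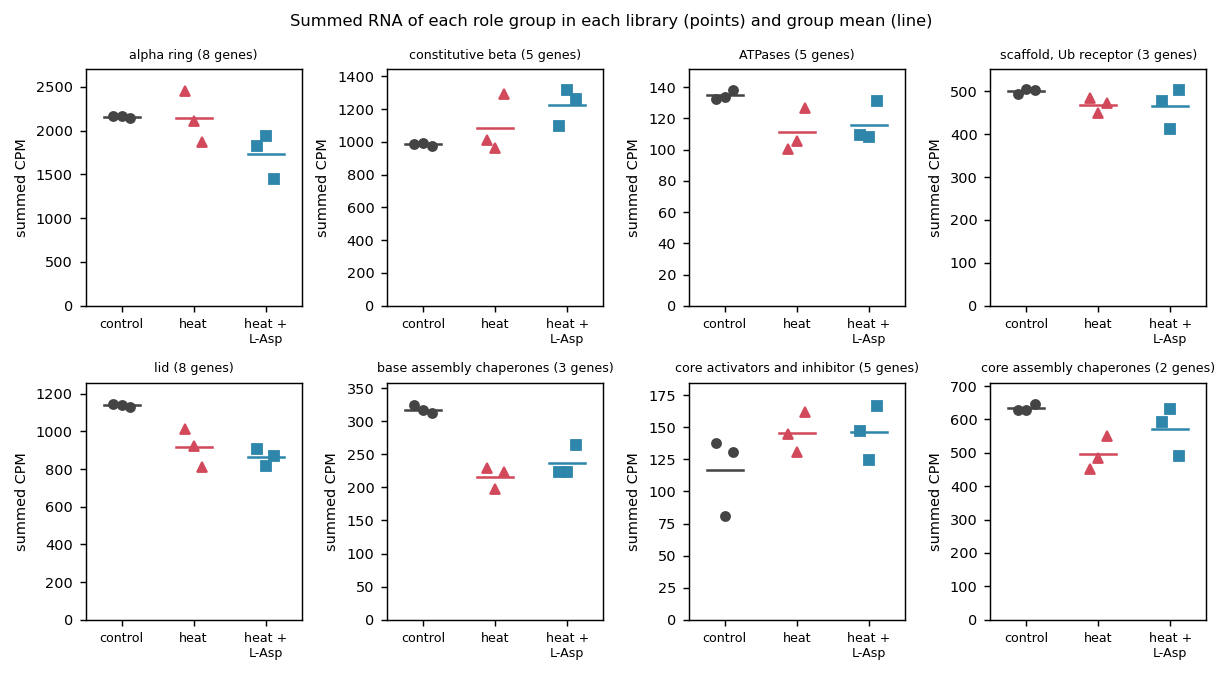
Summed CPM (y axis, from 0) of 8 role groups of proteasome genes in each library (points) and the group mean (line). The sums of the lid (through PSMD8; without it the groups overlap) and of the base assembly chaperones lie below control in all 6 heated libraries, the alpha ring is below control in the 3 HS_Lasp libraries, and the constitutive beta genes are above control there.

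The core has its own chaperones. PSMG1, a subunit of the first-acting chaperone pair, had 583, 581 and 598 CPM in control, 366, 372 and 495 in HS, and 524, 557 and 397 in HS_Lasp. All 6 heated libraries lay below control, with an unadjusted p of 0.101 for HS and 0.398 for HS_Lasp. PSMG3 stood the other way, with 46.3, 47.0 and 48.3 CPM in control, 85.9, 113 and 56.6 in HS, and 68.3, 75.7 and 94.1 in HS_Lasp. All heated libraries lay above control, at a log2 fold change of 0.85 ± 0.41 for HS (unadjusted p 0.0637) and 0.74 ± 0.41 for HS_Lasp (0.0958). PSMG2, which pairs with PSMG1 and was known by its description, had 1.63, 1.41 and 1.14 CPM in control, 10.8, 4.94 and 2.76 in HS, and 2.99, 6.27 and 2.39 in HS_Lasp. It was above control in all 6 heated libraries and spread widely within HS, with an unadjusted p of 0.067 for HS against control.

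The activators bind the core in place of the cap, and PSMF1 inhibits the core in the test tube. PSME2, which with PSME1 forms the activator induced by interferon, lies at chr7:75154649-75157870, within the row of RNF31 on the other strand. It had 0.650, 1.45 and 0.638 CPM in control, 3.84, 8.004 and 5.56 in HS (5.80 ± 2.09, SD, n = 3), and 7.87, 3.32 and 6.60 in HS_Lasp (5.93 ± 2.35, SD, n = 3). Every heated library lay above every control library, and the heated groups covered the same range. In control the gene was within a few times the limit of detection, so the size of a fold change against control is uncertain. The log2 fold change was 2.66 ± 0.92 for HS against control (unadjusted p 0.0145, adjusted p 0.934) and 2.69 ± 0.92 for HS_Lasp against control (unadjusted p 0.0138, adjusted p 1.0), both with edgeR on 7 libraries. With all 9 libraries as replicates edgeR's adjusted p was 0.0243 and 0.0339. RNF31 had 1.47 to 2.57 CPM in control, 0.634 to 1.52 in HS and 0.793 to 7.59 in HS_Lasp. Without strand, reads of these 2 genes cannot be told apart in the shared stretch, and their part in the PSME2 values was not tested.

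Markers of other cells were set beside PSME2. Of the 20 cumulus and granulosa markers found, 7 lay above control in all 3 HS libraries (17.6% of all genes tested did) and 2 below (24.6%). In all 3 HS_Lasp libraries 8 lay above control (19.2%) and 4 below (25.7%). Of the 20, 5, 4 and 1 were at 0 in all libraries of control, HS and HS_Lasp, respectively. Over the 15 that were tested, the median log2 fold change of HS against control was 1.19, beside 0.00 over all genes, with several of them near the detection limit. CYP11A1, which starts steroid synthesis, had at most 0.113 CPM in control, 5.85 to 14.8 in HS and 0.672 to 7.63 in HS_Lasp, while PTX3 was at 0 in every library and LHCGR in all but 1 of them. The 7 of 9 blood and immune markers found summed to 1.00 to 1.74 CPM in control, 0.362 to 5.13 in HS and 0.718 to 2.35 in HS_Lasp, with 1, 4 and 3 at 0 in all libraries. The part of these cells in the PSME2 and PSMG2 values was not tested.

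The partner PSME1 overlapped between the groups, with 1.11 to 1.89 CPM in control, 1.01 to 3.84 in HS and 0.573 to 3.82 in HS_Lasp. PSMF1 was lowest of all members per length, with 0.433, 0.464 and 0.863 CPM in control, 0, 1.01 and 3.14 in HS, and 0.0793, 0.0593 and 1.97 in HS_Lasp, and its groups overlapped. PSME4, an activator with a part in spermatogenesis, had 74.8, 72.6 and 74.5 CPM in control, 101, 88.4 and 93.2 in HS, and 85.1, 72.1 and 78.0 in HS_Lasp. Its HS libraries lay above both other groups, with an unadjusted p of 0.268 against control. PSME3, the nuclear activator and the highest of these genes per length (11.7 FPKM), had 60.0, 4.42 and 53.5 CPM in control, 39.2, 31.3 and 56.4 in HS, and 51.4, 48.3 and 76.0 in HS_Lasp. Control replicate 2 stood far below the other libraries. The log2 fold change of HS against control was 0.12 with it and −0.43 without it, so its sign rests on that library, and for HS_Lasp against control it was 0.59 and 0.04.

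The relatives by name were PSME3IP1 and PSMC3IP. PSME3IP1 had 46.3, 45.6 and 42.1 CPM in control, 75.8, 68.9 and 27.04 in HS, and 47.4, 32.7 and 31.5 in HS_Lasp, with HS on both sides of control. PSMC3IP had 5.79, 6.11 and 6.13 CPM in control, 8.24, 6.90 and 2.65 in HS, and 8.94, 6.21 and 9.08 in HS_Lasp. Its HS_Lasp libraries lay above control and HS straddled it.

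Counts of members without overlap were read against all genes. All 3 HS libraries lay above the control mean for 9 members, beside 17.6% of genes tested, and below it for 12, beside 24.6%. All 3 HS_Lasp libraries lay above it for 9, beside 19.2%, and below it for 15, beside 25.7%. HS_Lasp and HS did not overlap for 6 members, beside 11.9% of genes: PSMB7 and PSMD11 were higher with L-Asp, beside 6.31% of genes, and PSMA4, PSMA6, PSMD14 and PSME4 were lower, beside 5.54%. PSMD11, a lid subunit, had 309, 301 and 289 CPM in control, 287, 274 and 230.2 in HS, and 300.1, 304 and 315 in HS_Lasp, so that HS_Lasp lay near control and HS below it. Leaving out HS replicate 3 gave 15 such members, beside 27.9% of genes. Within groups, the median coefficient of variation of the members was 25.1% in HS and 19.8% in HS_Lasp, beside 41.0% and 36.1% over all genes. This was not matched for level: the median control FPKM was 26.25 for the members and 1.31 for all genes tested.

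Other genes of the pathway were taken from 5 lists. UBB, which encodes a chain of ubiquitin units, had 15960.0, 15840.0 and 15900.0 CPM in control, 4172, 5119 and 5097 in HS, and 6404, 5039 and 5353 in HS_Lasp. It lay far below control in every heated library, and the heated groups overlapped. Against control, HS had a log2 fold change of −1.74 ± 0.25, with an unadjusted p of 2.3e-05 and an adjusted p of 0.249 with edgeR on 7 libraries, and DESeq2 gave an adjusted p of 3.25e-06. For HS_Lasp against control it was −1.51 ± 0.25, with an adjusted p of 0.579 (edgeR) and 0.000343 with DESeq2. With no filter on low counts, edgeR on 7 libraries gave UBB an adjusted p of 0.0123 for HS and 0.0428 for HS_Lasp against control.

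Of 5 genes for ubiquitin and its activation, edgeR on 7 libraries called 0 in each comparison, with 2, 1 and 2 at an unadjusted p under 0.05 for HS against control, HS_Lasp against HS and HS_Lasp against control, and DESeq2 called 1, 0 and 1, in both cases UBB. Over all genes the shares were 3.86%, 6.61% and 3.22% at that unadjusted p, and 1.13%, 0.934% and 0.386% for calls of DESeq2. The fit of 9 libraries called 2, 0 and 1, beside 2.88%, 0.0133% and 1.79% of genes. RPS27A, a fusion of ubiquitin to a ribosomal protein, had 29.3 to 30.7 CPM in control, 50.8 to 74.8 in HS and 50.7 to 55.7 in HS_Lasp. All heated libraries lay above control, at a log2 fold change of 0.97 for HS (unadjusted p 0.0215) and 0.81 for HS_Lasp (0.0468). UBA1, the main ubiquitin-activating enzyme, had 121, 123 and 125 CPM in control, 68.9, 92.6 and 107 in HS, and 136, 133 and 201 in HS_Lasp. Its 3 groups did not overlap, with HS lowest, and the log2 fold change of HS_Lasp against HS was 0.81 ± 0.25 (unadjusted p 0.00722, adjusted p 0.738, edgeR).

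The other lists gave no call with edgeR on 7 libraries or with DESeq2. Of 11 partners of the proteasome with other names, 0 had an unadjusted p under 0.05 in each comparison with edgeR, and 1 had one with DESeq2, for HS_Lasp against HS. USP14, a deubiquitinase on the cap, had 201, 198 and 189 CPM in control, 276, 251 and 203 in HS, and 214, 172 and 148 in HS_Lasp, with overlap between the heated groups. UCHL5, the other deubiquitinase bound there, had 163 to 169, 218 to 303 and 169 to 230 CPM, in the order control, HS and HS_Lasp. Of 13 shuttle factors and unfoldase genes, 0 had an unadjusted p under 0.05 with edgeR and 0, 1 and 1 with DESeq2, and 9 were above 0 for HS_Lasp against HS (median 0.37, beside −0.01 over all genes). SQSTM1, which carries ubiquitinated cargo to autophagy, had 279, 269 and 286 CPM in control, 264, 297 and 299 in HS, and 345, 349 and 453 in HS_Lasp. Every HS_Lasp library lay above the other 6, with an unadjusted p of 0.0541 against HS.

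Of 9 genes that control transcription of proteasome genes, 7 were above 0 for HS_Lasp against HS (median 0.38), and 1 gene, IRF1, had an unadjusted p under 0.05 there with edgeR, while DESeq2 had 0, 2 and 1 in the 3 comparisons. NFE2L1, the factor that raises proteasome genes when the protease is blocked, had 20.9, 20.1 and 22.0 CPM in control, 12.5, 17.8 and 10.9 in HS, and 19.9, 19.7 and 22.2 in HS_Lasp. HS lay below both other groups, which overlapped, with unadjusted p-values of 0.179 against control and 0.0912 for HS_Lasp against HS. IRF1, which drives the inducible subunits after interferon, had 24.3, 24.5 and 24.3 CPM in control, 8.52, 4.57 and 19.1 in HS, and 27.7, 17.8 and 43.8 in HS_Lasp. HS lay below control, HS_Lasp spread around it, and the log2 fold change of HS_Lasp against HS was 1.47 ± 0.51 (unadjusted p 0.0147, adjusted p 0.738, edgeR).

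Antigen presentation was represented by 5 tested genes, none with an unadjusted p under 0.05 in edgeR on 7 libraries, and DESeq2 had 1 in each comparison. Beside 2.88% of all genes, the fit of 9 libraries called CALR, a chaperone of the endoplasmic reticulum, for HS against control. It had 15.0, 12.9 and 13.3 CPM in control, 31.0, 28.3 and 21.2 in HS, and 25.4, 20.4 and 18.3 in HS_Lasp, all heated libraries above control. B2M, the light chain of class I molecules, had 0.375 to 0.610 CPM in control, 0.780 to 2.94 in HS and 1.71 to 4.84 in HS_Lasp, and TAP1, a peptide transporter, had 0.197 to 0.835, 1.31 to 5.51 and 0.0927 to 2.16. TAP1 lies within the row of PSMB9 on the other strand, so reads of these 2 genes cannot be told apart in the shared stretch. In control, B2M and TAP1 were close to the detection limit.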

How the data were processed

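Polyadenylated RNA of 9 oocyte libraries was primed with oligo(dT), amplified as full-length cDNA, fragmented and sequenced in pairs without strand or molecular identifiers, per the labels' protocols. The authors deposited counts and FPKM values per gene. The submitters' processing notes give no roles for the tools they list: StringTie 2.1.6, HISAT2 2.2.1, edgeR, DESeq2 and cutadapt 1.9. Genome build and counting method were not given in the sources used here. A further 6 columns of per-sample values were not used.

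The deposited counts were filtered with filterByExpr on 9 libraries (15012 genes), scaled by TMM and tested with edgeR 4.0.16 (R 4.3.3; robust quasi-likelihood F test, 1 mean per group, Benjamini-Hochberg over all genes, threshold 0.05, 4 residual degrees of freedom). The rounded mean of the control counts was 1 sample, so 7 libraries entered. The code was tested on simulated data. DESeq2 1.42.0, all 9 libraries, other filters and scalings, and leaving out each library were alternatives. CPM values use TMM on 9 libraries, and control SDs are not given. The FPKM values deposited by the authors served for levels between genes. The assumed 4 counts per fragment come from piles of low control counts. Reads are not independent molecules, so limits cover counting error only.

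Named genes were those of smallest p per comparison (4), the highest and lowest FPKM of each role, the catalytic, deubiquitinating and ubiquitin-binding subunits, and in other lists some of those of smallest p, with UBB; a gene that this rule gives is not reported here. PSMA8, PSMD11, PSME4 and RPS27A were among genes described after their values were seen. Members and lists were chosen with earlier results of these data known. The share of inducible subunits was planned with PSMB5 and PSMB8, which were not analysed here, and was computed without them. Of the 43 members, 14 overlap another gene's row.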

Additional observations from a re-analysis of the deposited data

How the results depend on the processing

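The 43 members gave 0 calls in edgeR on 7 libraries under all 3 scalings, with other or no filters on low counts and with each library left out (0 to 0). With all 9 libraries as replicates there were 3 calls for HS and 3 for HS_Lasp against control; DESeq2 gave 1 for the latter. The median log2 fold change for HS against control was 0.27 when scaled by library totals, where the median of all genes moved to 0.19, and −0.081 to 0.133 with a library left out. For HS_Lasp against HS it ran from −0.052 to 0.024 with a library left out, and for HS_Lasp against control it was 0.053 by library totals (0.18 over all genes) and −0.137 to −0.050 with a library left out. Relative to all genes, the members stood at 0.08 and −0.13 under library totals. The count of members without overlap between HS_Lasp and HS was 8 to 15 with a library left out (13 without HS replicate 2, 15 without HS replicate 3, 10 without HS_Lasp replicate 1 and 12 without HS_Lasp replicate 2), beside 17.7% to 27.9% of all genes, since fewer libraries have to be separated. From TMM counts in place of FPKM, the mean share of inducible subunits was 1.22% in HS and 0.771% in HS_Lasp; with a library left out the FPKM share was 0.280% to 0.449% in control, 0.303% to 0.754% in HS and 0.353% to 0.400% in HS_Lasp. No pairing by replicate number was detected: deviations of same-numbered libraries correlated between −0.02 and 0.05. Control libraries differed too little to show one. Only the values of HS with HS_Lasp (0.05, −0.02 and 0.01 for replicates 1 to 3) bear on it. With the replicate block in the fit of 9 libraries there were 3 calls for HS against control (378 over all 15012 genes; PSMD8, PSMD10 and PSME2), 0 for HS_Lasp against HS and 2 for HS_Lasp against control (223 over all genes; PSMB7 and PSMD8).

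The lone averaged control has no spread of its own, and depth limits PSMB9, PSMB10, PSME1, PSMF1 and the control level of PSME2.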

Other observations

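PSME3 in control replicate 2 was singled out after its values were seen. The gene had 3047, 238 and 2852 counts in the 3 control libraries and 1644 to 3282 in the 6 heated ones. The ratio of the highest to the lowest control library was 13.6 in CPM, whereas the largest ratio among the other 32 members with at least 20 CPM was 1.22, for PSMB7. Among 3051 genes with a control median of at least 50 CPM, 1 had its lowest control library at or below the median divided by 10, and it was PSME3. BECN1, a gene near it, had 74.9, 78.0 and 79.7 CPM in the same libraries.

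PSMB7 as a share of the summed FPKM of PSMB6 and PSMB7, also chosen after values were seen, was 14.8%, 18.0% and 15.4% in control, 24.6%, 21.8% and 22.3% in HS, and 25.8%, 25.9% and 28.1% in HS_Lasp. The 3 groups did not overlap.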
